A study of Homo sapiens with 6 samples.

Results

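The HOXB cluster on human chromosome 17 was described at its single CpGs in PC-3, an established prostate carcinoma line. CpGs were taken by position alone, from hg19 chr17:46600000-46815000, which holds HOXB1 to HOXB9 and, at chr17:46802127-46806111, HOXB13. A CpG was a member when the reads of both strands together came to at least 10 in 2 or more libraries of each group. This held for 686 of the 1098 CpG positions listed in the region in any library, and for 686608 CpGs in all under the same coverage rule. The other 412 positions of the region fell short of it. Genomic DNA came from PC-3 cells that had received 160 µM S-adenosylmethionine (SAM) for 5 days, which gave 3 libraries, and from PC-3 cells that had received PBS vehicle, which gave 3 Control libraries. No transgene or genetic change separates the groups, and all libraries come from this 1 line. The labels do not say whether the libraries of a group were separate cultures, so every p-value below measures the spread between these libraries, which may be technical.

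SAM is the methyl donor used by the DNA methyltransferases, which add a methyl group to the cytosine of CpG. Bisulfite sequencing reads a methylated cytosine as C and an unmethylated one as T, and the methylation level of a CpG is the percent of its reads that carry C. HOX genes encode homeodomain transcription factors that set position along the body axis, and they lie in clusters in the order in which they act. HOXB13, set apart at one end of its cluster, is known in the prostate as a lineage factor that binds the androgen receptor. PRAC1 and PRAC2, beside it, encode small proteins found in prostate and lower bowel. CpG-rich DNA around gene starts is mostly unmethylated where the gene can be transcribed, and dense methylation there goes with silencing.

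Promoters of 2 genes are shown, since no other promoter sequence of the region could be placed in hg19. Their levels lie at opposite ends of the range in the region. The PRAC2 start shown is unmethylated and the LINC02086 start shown is methylated in every library that covered it. LINC02086 is a long non-coding RNA gene, and it was chosen after its values were seen. Both sequences are from RefSeq (GRCh38.p14), written 5′ to 3′ on the plus strand, from 250 bases before the gene start to 50 bases from it on. They were placed in hg19 by matching the spacing of their CG pairs to the listed CpG positions. Capitals mark the CpGs that are members.
PRAC2: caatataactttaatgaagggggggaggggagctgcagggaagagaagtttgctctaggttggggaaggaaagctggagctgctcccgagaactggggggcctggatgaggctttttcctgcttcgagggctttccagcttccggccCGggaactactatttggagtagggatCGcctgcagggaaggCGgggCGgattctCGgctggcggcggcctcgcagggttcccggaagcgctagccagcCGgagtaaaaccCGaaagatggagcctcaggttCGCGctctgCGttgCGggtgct
LINC02086: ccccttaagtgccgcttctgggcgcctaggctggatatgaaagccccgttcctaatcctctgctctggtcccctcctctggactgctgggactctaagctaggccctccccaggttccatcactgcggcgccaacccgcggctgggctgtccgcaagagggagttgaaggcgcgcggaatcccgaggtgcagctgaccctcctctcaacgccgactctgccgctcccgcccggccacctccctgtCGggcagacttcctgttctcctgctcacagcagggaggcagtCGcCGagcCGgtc
The PRAC2 stretch fell at chr17:46800804-46801103 with its gene start at 46801054, where all 11 listed CpGs met a CG of the sequence, and the next best placement met 4. The LINC02086 stretch fell at chr17:46719739-46720038 with its gene start at 46719989. There all 9 listed CpGs met a CG and the next best placement met 5. This is fewer than the 10 matches that were asked, so its place is less firmly set.

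Total reads over the listed positions ran from 33056018 to 183523792, with the lowest totals in SAM replicate 2 and Control replicate 2. Of the 686 members, SAM libraries 1 to 3 covered 663, 480 and 682 with at least 10 reads, and Control libraries 1 to 3 covered 670, 439 and 683. All 6 libraries covered 322 members, which carry the comparisons between libraries. Their median reads were 106, 30 and 147 in SAM libraries 1 to 3 and 115.5, 40 and 167.5 in Control libraries 1 to 3. No label names a batch. Clustered by read coverage, the libraries formed 2 sets, each with both treatments: set A holds replicates 1 and 2 of SAM and 1 and 3 of Control, and set B holds replicate 3 of SAM and 2 of Control. The place of SAM replicate 2 is less firm. Its coverage over 1 kb windows correlated best with that of Control replicate 1 in set A (Spearman's rho 0.912) and least with Control replicate 2 in set B (0.793). With SAM replicate 3 in set B (0.841) it correlated about as well as with SAM replicate 1 (0.843) and Control replicate 3 (0.832) in set A. Between any 2 libraries the levels of shared members gave Pearson's r of 0.948 to 0.986, a correlation across CpGs that are not independent of each other.

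Highly methylated CpGs were the largest class of the cluster in PC-3, and the members at the end that holds HOXB13 were unmethylated in both groups. Of the 686 members, 348 (50.7%) had a mean level over 80%, 145 (21.1%) lay between 20 and 80%, and 193 (28.1%) lay under 20%. Among the 322 members covered in all libraries the shares were 48.4, 19.9 and 31.7% in the same order of classes. Of all 336571 CpGs covered in all libraries, 31.8% were over 80%, 13.4% between and 54.8% under 20%. The coverage rule bears on the levels: the mean was 58.3% at the 322 members covered in all libraries, 63.1% at the 364 members covered in 4 or 5, and 67.7% at the 412 positions short of the rule.

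**Figure D1:**
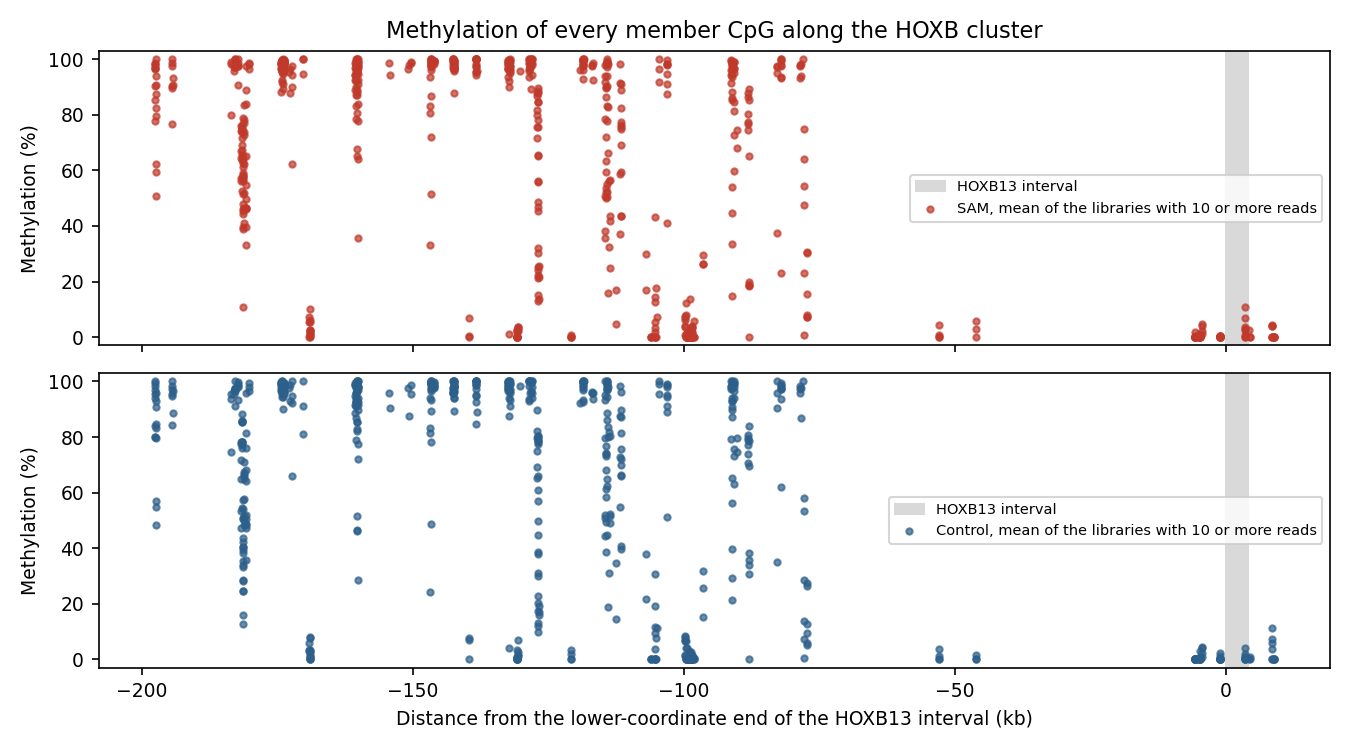
Methylation level (%) of each member CpG against its distance (kb) from the lower-coordinate end of the HOXB13 interval, which is shaded, in SAM (upper panel) and Control (lower panel). Each point is the mean of the libraries of the group with at least 10 reads. Levels between 0 and 100% alternate along the cluster on the left, and members from the last stretch before HOXB13 on lie near 0 in both groups.

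The members did not lose methylation step by step toward HOXB13. They alternated between highly methylated and unmethylated stretches up to 46724886, where the last member at or above 20% stood at 28.5%. All 66 members beyond it, up to 46810930, lay between 0 and 8.69%. The 64 of these that lie over 10 kb beyond that member, from 46749215 on, had a mean of 1.13%. In the separate libraries the mean of those covered was 1.12, 1.06 and 1.22% in SAM libraries 1 to 3, and 0.620, 2.55 and 0.650% in Control libraries 1 to 3. The groups overlapped. Because the limit was set by the levels themselves, these values describe the stretch and test nothing. Much of this end was not read: no member lies between 46724916 and 46749215, or between 46756002 and 46796348.

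HOXB13 itself was covered at 8 members near its higher-coordinate end, which is the end where transcription starts (46805563 to 46805634). Their mean level was 3.54, 5.07 and 2.59% in SAM libraries 1 to 3, from 10 of 276, 7 of 138 and 6 of 208 reads. In Control replicates 1 and 3 it was 2.0 and 0%, from 17 of 678 and 0 of 254 reads, and Control replicate 2 had no member there with 10 reads. The single members lay between 0 and 8.11%. SAM replicate 2 covered 6 of the 8 members. The SAM libraries were above both covered Control libraries, and each level rests on 0 to 17 methylated reads. As a share of all reads at these CpGs, with its exact 95% binomial interval, methylation was 3.62% (1.75 to 6.56) in SAM replicate 1, 5.07% (2.06 to 10.2) in SAM replicate 2 and 2.88% (1.07 to 6.17) in SAM replicate 3. In Control it was 2.51% (1.47 to 3.98) in replicate 1, whose interval overlaps those of SAM, and 0 of 254 reads in replicate 3 allow a share of up to 1.18% by the 3-count rule, or 1.44% as the exact upper bound. These intervals and limits cover counting error only, and they take counts summed over CpGs. A read that spans several CpGs is counted at each, so the intervals can be too narrow and the limits too low. No test was run on these 8 CpGs alone, since none was covered in all libraries.

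A second group of 3 members lies before the gene start (46806445 to 46806484). Their mean level was 2.29, 0 and 0.407% in SAM libraries 1 to 3, and 0.0448, 0.851 and 0.168% in Control libraries 1 to 3. The groups overlapped, and the highest level at any single CpG was the 6.88% of 46806445 in SAM replicate 1.

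On the other side of HOXB13, the 11 members around the PRAC2 start shown above were unmethylated. Their mean level was 0.453, 0 and 0% in SAM libraries 1 to 3, from 9 of 2207, 0 of 229 and 0 of 327 reads. In Control libraries 1 to 3 it was 0.403, 0 and 0.418%, from 4 of 1108, 0 of 59 and 9 of 2124 reads, with 5 of the 11 members covered in Control replicate 2. No single CpG exceeded a mean of 1.29%. The groups overlapped. By the 3-count rule the counts of 0 allow a share of up to 1.31% in SAM replicate 2, 0.917% in SAM replicate 3 and 5.08% in Control replicate 2. The exact 95% upper bounds are 1.60, 1.12 and 6.06%. Counts are summed over CpGs here too. A read that spans several is counted at each, so these limits can be too low.

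The LINC02086 start shown above was the opposite. Its 4 members averaged 98.2 and 97.2% in SAM replicates 1 and 3, from 167 of 170 and 88 of 91 reads, and SAM replicate 2 had none with 10 reads. They averaged 97.8, 100 and 97.7% in Control libraries 1 to 3, from 221 of 226, 11 of 11 and 249 of 255 reads, with 1 member covered in Control replicate 2. The groups overlapped. The other 5 listed CpGs of this stretch fell short of the coverage rule. The order of genes in the RefSeq table (GRCh38.p14) runs from HOXB1 through HOXB2, HOXB3, HOXB4, MIR10A, HOXB5, HOXB6, HOXB7, HOXB8, HOXB9 and MIR196A1 to PRAC2, PRAC1 and HOXB13. PRAC2 and LINC02086 each have another promoter sequence, whose CG spacing met no single place, so the level at that start is not known. HOXB1 and PRAC1 have promoter sequences that met no single place either, and HOXB2 to HOXB9 had no sequence to match. The methylated and unmethylated stretches below are therefore given by position and not assigned to genes.

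**Figure D2:**
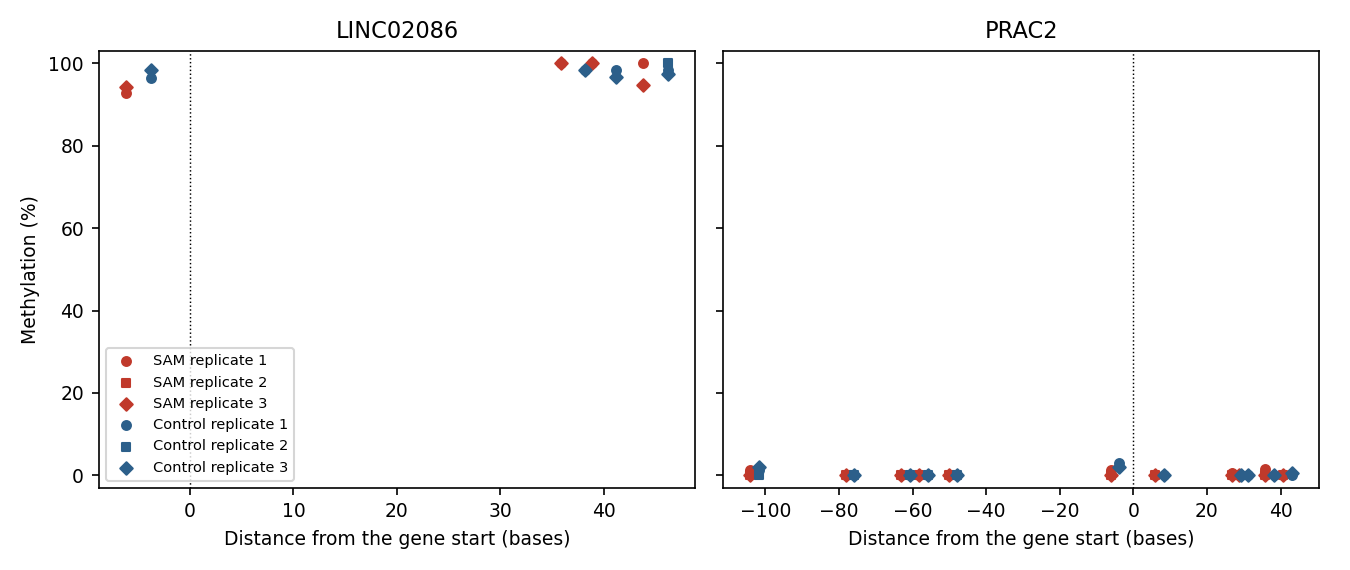
Methylation level (%) of the members around the LINC02086 and PRAC2 starts, against the distance in bases from the gene start, in each SAM and Control library with at least 10 reads. Points of the groups are drawn slightly apart at each CpG. Mean levels of single members lie between 95.4 and 99.1% at LINC02086 and between 0 and 1.29% at PRAC2.

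Members covered in all libraries and at most 500 bp from the next formed 21 blocks of at least 5 CpGs, which together held 275 CpGs. The blocks were highly methylated in 9 cases (mean over 80%), unmethylated in 7 (under 20%) and between in 5. They are numbered here from the lower-coordinate end. The highest were block 11 (chr17:46683514-46683587) with 98.1% in SAM and 97.9% in Control, and block 4 (chr17:46627848-46628444) with 97.9% in SAM and 98.1% in Control. Block 2 followed with 97.5% in SAM and 96.9% in Control, then block 8 with 96.9% in SAM and 96.9% in Control, and block 9 with 97.7% in SAM and 92.7% in Control. Block 14 had 95.3% in SAM and 95.1% in Control. Every CpG of these 6 blocks was over 80%. Blocks 6, 7 and 10 were less even. Block 6 had 92.7% in SAM and 90.8% in Control, block 7 had 88.2% in SAM and 88.2% in Control, and block 10 had 84.5% in SAM and 83.1% in Control, with single CpGs down to 57.0, 28.7 and 2.71%.

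The unmethylated blocks were 5, 13, 15, 16, 19, 20 and 21. Blocks 15 and 16 (chr17:46702347-46702758 and chr17:46703305-46704026) hold 46 CpGs, 31 of them in block 16, the most of any unmethylated block. Block 15 was at 2.37, 5.69 and 2.55% in SAM libraries 1 to 3 and 2.24, 2.98 and 4.39% in Control libraries 1 to 3. Block 16 was at 0.664, 1.28 and 0.349% in SAM libraries 1 to 3 and 0.711, 0.433 and 0.301% in Control libraries 1 to 3. All 61 members from 46702347 to 46704026 were at 9.48% or less, while the nearest blocks on either side, 14 and 17, were at 95.2 and 76.9% over all libraries. Block 5 (chr17:46633087-46633229) was at 3.6% in SAM and 3.09% in Control, between the highly methylated blocks 4 and 6. Block 13 was at 9.78% in SAM and 8.30% in Control, and block 19 was at 16.5% in SAM and 14.5% in Control. Closer to HOXB13, block 20 was at 1.15% in SAM and 1.23% in Control. Block 21, the nearest to HOXB13, lies in the PRAC2 stretch and was at 0.0926% in SAM and 0.222% in Control.

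Intermediate levels were found in blocks 1, 3, 12, 17 and 18. Block 1 (chr17:46604675-46604786) was at 77.1% in SAM and 75.0% in Control, and block 17 was at 76.3% in SAM and 77.5% in Control. Block 3 (chr17:46620502-46621440) was at 65.0, 57.8 and 69.0% in SAM libraries 1 to 3 and 61.8, 66.4 and 62.0% in Control libraries 1 to 3. These 3 blocks mix CpGs of different level, and in block 3 the CpGs ran from 45.1 to 96.7%. Blocks 12 and 18 mix them too, with CpGs from 31.8 to 98.0% and from 0 to 86.7%. Block 12 (chr17:46687539-46688444) was at 63.8, 58.0 and 65.8% in SAM libraries 1 to 3 and 70.2, 61.8 and 72.6% in Control libraries 1 to 3. Block 18 (chr17:46714001-46714110) was at 45.9, 45.3 and 47.4% in SAM libraries 1 to 3 and 43.6, 71.1 and 42.7% in Control libraries 1 to 3. Control replicate 2 stood apart from the other libraries in block 18, where it had the fewest reads, a mean of 13.3 per CpG, and what part depth has in this was not tested. Its distance came from the higher-coordinate side of the block. At 46714109 it was at 78.6%, against 15 to 24.6% in SAM and 17.5 and 18.8% in the other Control libraries, while at 46714053 its 90% lay among 83.1 to 95.7% in SAM and 80.4 and 81.6% in the other Control libraries.

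**Figure D3:**
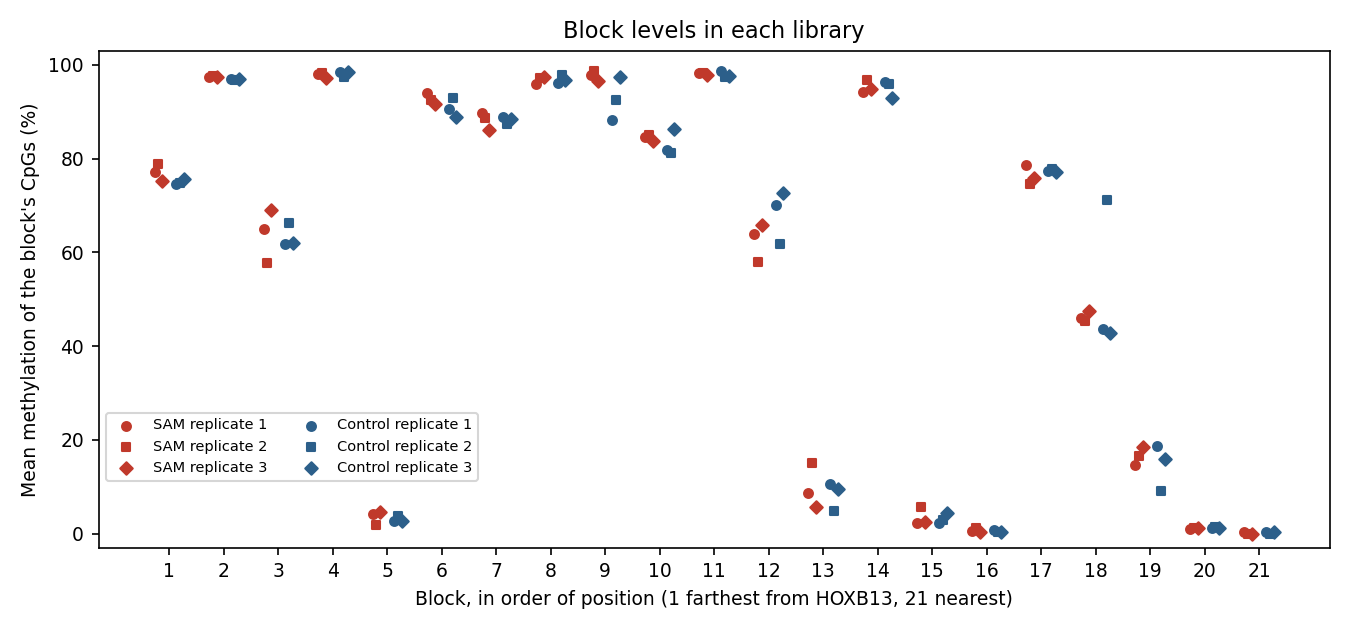
Mean methylation (%) of the CpGs of each block in each library, with the 3 SAM libraries left of the 3 Control libraries and blocks in order of position, block 21 nearest HOXB13. Blocks over 80% and blocks under 20% are interleaved, and Control replicate 2 in block 18 (71.1%) is the value farthest from the others of its group.

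The cluster was more methylated than CpGs elsewhere, but the direction differed with the local number of listed CpGs. The 322 members averaged 58.3% ± 0.352 (SD, n = 6 libraries), against 38.4% ± 0.0503 for the 336249 other CpGs covered in all libraries. The difference was 19.9 percentage points and was positive in 6 of 6 libraries (exact two-sided sign-flip p = 0.0312, the smallest that 6 libraries allow). In 1 kb windows with 15 to 39 listed CpGs, 161 members averaged 71.1% ± 0.623, against 35.8% ± 0.061 for the other CpGs of such windows, 35.3 points higher. In windows with 40 or more listed CpGs, 77 members averaged 49.7% ± 1.29, against 20.1% ± 0.0676, 29.6 points higher. The direction was the other way in windows with fewer listed CpGs, a count of positions read and not of all CpGs in the DNA. At 5 to 14 listed CpGs, 71 members averaged 39.7% ± 1.01, against 63.2% ± 0.0847. At 1 to 4 listed CpGs, 13 members averaged 52.5% ± 1.61, against 72.6% ± 0.248. The mean of these 13 joins unlike CpGs, such as 97.4% at 46622001 and 0% at 46704025. The windows are fixed, so 46703998 fell in one with 51 listed CpGs and its neighbour 46704004 in one with 3. Each difference between the cluster and the other CpGs had 1 sign in all 6 libraries, with the same exact sign-flip p. Adjustment over the 10 comparisons of this kind leaves it at 0.0312. Against the rest of chromosome 17 alone, the differences were 21.1 points over all densities, and 35.7, 33.1, -26.6 and -23.1 points in windows of 15 to 39, 40 or more, 5 to 14 and 1 to 4 listed CpGs. The libraries are all of 1 line, so the test speaks to the repeat of the difference between libraries and not to other cells.

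**Figure D4:**
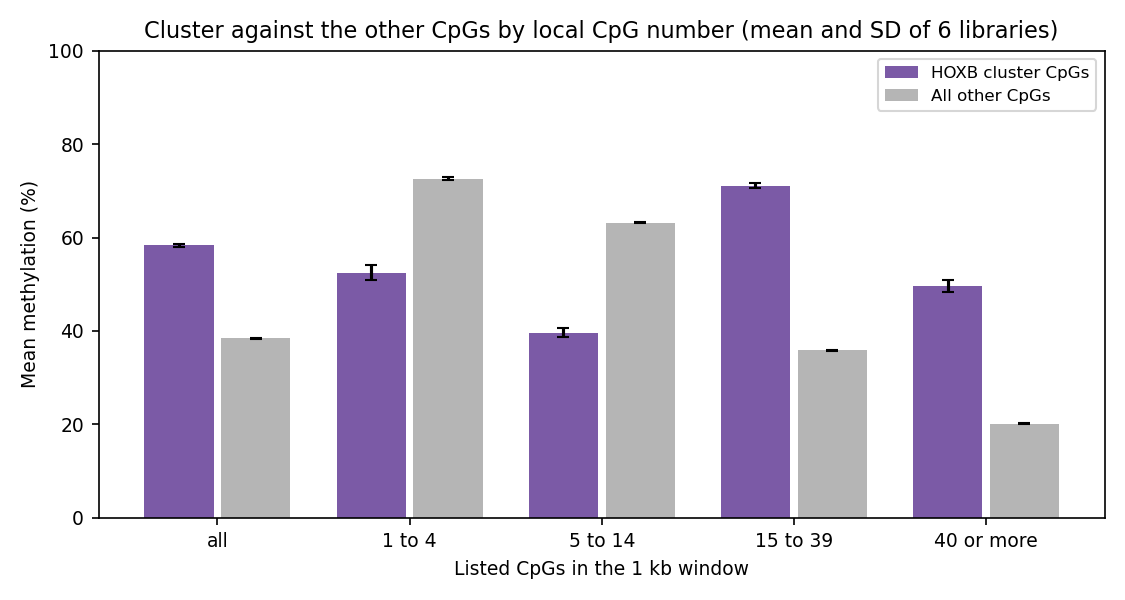
Mean methylation (%) of the HOXB cluster CpGs and of all other CpGs, over all windows and in 4 classes of listed CpGs per 1 kb window. Bars are means and whiskers the SD of the 6 libraries. The cluster lies above the other CpGs in windows of 15 to 39 and of 40 or more, and below them in windows of 1 to 4 and of 5 to 14.

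Within each library, the CpGs of HOXB13 and its 2 kb flanks were far below the other members. The 8 of these 22 CpGs that were covered in all libraries averaged 0.334%, against 59.8% for the 314 other members, a difference of -59.5 points ± 0.427 (SD, n = 6 libraries). It was negative in 6 of 6 libraries (exact two-sided sign-flip p = 0.0312). The flanks include 5 CpGs of the PRAC2 stretch, and none of the 8 lies inside HOXB13. All 22 members were under 20%, while 25.8% of the 664 other members were. SAM did not move this difference beyond the spread between libraries: it was -58.9, -59.7 and -59.5 points in SAM libraries 1 to 3 and -59.4, -60.1 and -59.1 points in Control libraries 1 to 3 (exact two-sided permutation p = 0.60).

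The mean level of the cluster overlapped between SAM and Control. Over the 322 members it was 58.5, 58.2 and 58.2% in SAM libraries 1 to 3, and 58.1, 59.0 and 58.0% in Control libraries 1 to 3. Control replicate 2 was the highest and Control replicate 3 the lowest, so the SAM libraries lay inside the range of Control. The means were 58.3% ± 0.166 in SAM and 58.4% ± 0.525 in Control (SD, n = 3 each). SAM minus Control was -0.0852 points with a standard error of 0.318 (exact two-sided permutation p = 1, where 3 libraries against 3 cannot go below 0.10). The sign of this value is not stable. It was 0.258 points within coverage set A and -0.772 within set B, where 1 library meets 1. Without Control replicate 2 it was 0.215 points (exact two-sided permutation p = 0.30), and every SAM library was above both remaining Control libraries. The 314 members outside HOXB13 and its flanks gave 59.8% ± 0.157 in SAM and 59.8% ± 0.538 in Control, a difference of -0.0905 points (exact permutation p = 1).

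For HOXB13 and its flanks the 8 CpGs averaged 1.03, 0 and 0.153% in SAM libraries 1 to 3, and 0.192, 0.319 and 0.305% in Control libraries 1 to 3. SAM replicate 1 was the highest and SAM replicate 2 the lowest. SAM minus Control was 0.123 points with a standard error of 0.325 (exact two-sided permutation p = 1). It was 0.268 points within set A and -0.166 within set B. Without SAM replicate 1 it was -0.196 points and the groups did not overlap (exact two-sided permutation p = 0.20). When every library entered with its own members of the 22, the difference was 0.953 points and the groups did not overlap (exact permutation p = 0.10, the smallest possible). That value mixes different CpGs, since Control replicate 2 covered none of the 8 inside HOXB13.

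Block by block, 14 of the 21 blocks were higher in SAM and 7 lower, with differences from -6.28 to 4.99 points and a median of 0.284. Over all 19421 blocks of the genome the median was 0.00954 points. The groups did not overlap in 1 of the 21 blocks, while they did not overlap in 9.4% of all blocks of the genome. That block was block 2 (chr17:46619236-46619291), with 97.4, 97.5 and 97.5% in SAM libraries 1 to 3 and 97.0, 96.8 and 96.9% in Control libraries 1 to 3. Its difference was 0.57 points (standard error 0.10, exact permutation p = 0.10, adjusted p over the 21 blocks 0.95). Block 9 (chr17:46663789-46663913) had the largest positive difference. It was at 97.8, 98.7 and 96.6% in SAM libraries 1 to 3 and 88.3, 92.5 and 97.4% in Control libraries 1 to 3, 4.99 points (standard error 2.70, exact permutation p = 0.20). Block 18 had the largest negative one, -6.28 points (standard error 9.35, exact permutation p = 1), and it rests on Control replicate 2. Block 12 differed by -5.66 points (standard error 4.02, exact permutation p = 0.30). Blocks 15 and 16 differed by 0.334 and 0.284 points, within the spread of their libraries. No block passed adjustment, which 3 libraries against 3 could not have reached.

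**Figure D5:**
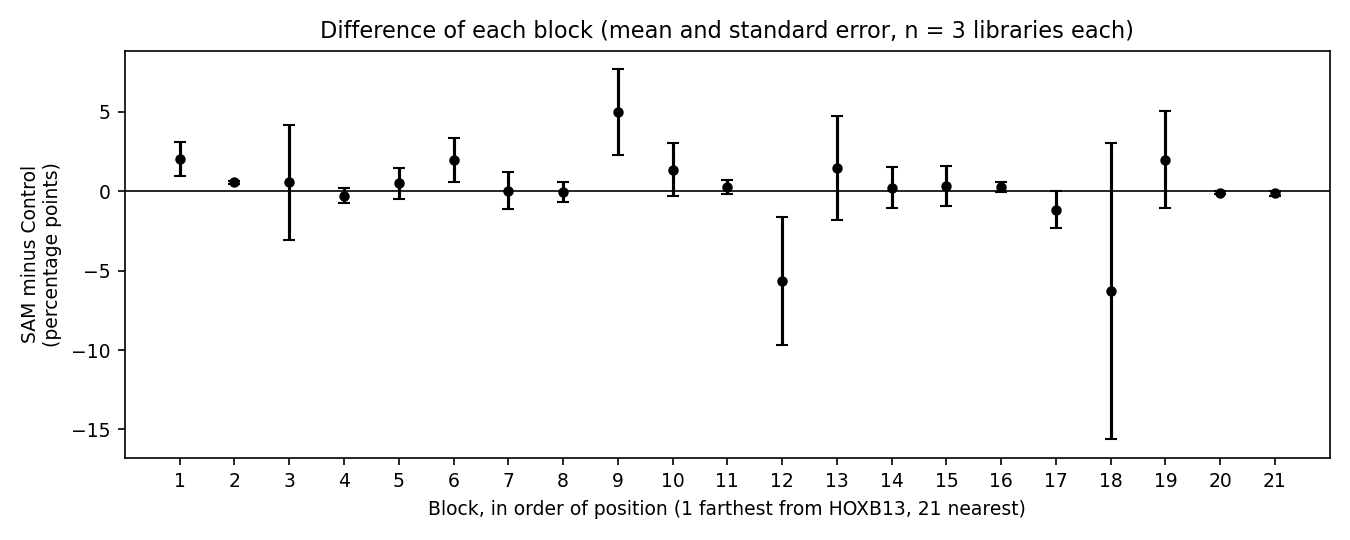
SAM minus Control in mean methylation (percentage points) for each block in order of position, block 21 nearest HOXB13. Points are differences of group means and whiskers their standard errors (n = 3 libraries each), and the whiskers are widest in block 18, whose difference is -6.28 points.

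No single member passed the test between SAM and Control. Of the 322 members, 292 could be tested by edgeR's quasi-likelihood method on methylated and unmethylated counts, fitted on all 257696 testable CpGs, and 30 had 0 methylated or 0 unmethylated reads in total. At an adjusted p under 0.05 edgeR called 0 of the 292, against 0% of all CpGs tested, and the smallest adjusted p was 0.89. At an unadjusted p under 0.05 it gave 3 members (1.03%), 1 higher and 2 lower with SAM, against 2.81% of all CpGs. Limma and the quasi-binomial test also called 0 of the same members, against 0% of all CpGs. At an unadjusted p under 0.05 limma gave 11 members (3.77%), against 3.49% of all CpGs, and the quasi-binomial test 28 (9.59%), against 12.3% of all CpGs. Of the tested members 151 were higher and 141 lower with SAM, with a median difference of 0.0941 points, against 0.0546 points over all CpGs tested. The groups did not overlap at 14 of the 322 members (4.35%), 8 higher and 6 lower with SAM, against 4.9% of all CpGs. In 1 kb windows with at least 3 CpGs edgeR called 0 of 35, against 0% of all 33583 windows. At an unadjusted p under 0.05 it gave 0 of the 35, against 3.13% of all windows, limma gave 0, against 4.23%, and the quasi-binomial test 2 (5.71%), against 7.17%.

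The 10 members with the smallest p were all highly methylated in Control, with means of 84.8 to 100%, and each had an edgeR adjusted p of 0.89. At 46659699 the level was 100, 100 and 98.9% in SAM libraries 1 to 3 and 94.8, 97.0 and 90.4% in Control libraries 1 to 3, a difference of 5.56 points with a standard error of 1.99. At 46687556 it was 90.9, 100 and 90.6% in SAM libraries 1 to 3 and 100% in each Control library, a difference of -6.16 points with a standard error of 3.08. The groups did not overlap at the first site and met at 100% at the second. At 46711337 it was 75.9, 76.9 and 91.4% in SAM libraries 1 to 3 and 93.6, 100 and 96.3% in Control libraries 1 to 3, a difference of -15.2 points with a standard error of 5.34, from 13 to 140 reads, and the groups did not overlap. At 46663888 it was 100% in each SAM library and 67.9, 86.6 and 100% in Control libraries 1 to 3, a difference of 15.2 points with a standard error of 9.31. This CpG lies in block 9, and the groups met at 100%. Of the other 6, the level at 46641908 differed by 6.99 points, SAM minus Control. The difference was -3.22 points at 46641918, -2.41 at 46629895, -2.18 at 46683562, -1.05 at 46655510 and -0.934 at 46627848. The differences at 46641918 and 46683562 came from SAM replicate 3 alone and were 0 without it. The others also moved with 1 library, to 2.52 points at 46641908 without Control replicate 1, -1.25 at 46629895 without SAM replicate 3, -0.345 at 46655510 without SAM replicate 2 and -0.249 at 46627848 without SAM replicate 1. The 2 neighbours 46641908 and 46641918, in block 6, differed in opposite directions.

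Of the 5 windows with the smallest p, all with an edgeR adjusted p of 1.0, the one from 46619001 to 46620000 holds block 2 and differed by 0.57 points. The window from 46720001 to 46721000 begins inside the LINC02086 stretch, but none of the 4 CpGs tested in it lies in that stretch. This window was at 74.4, 75.2 and 86.2% in SAM libraries 1 to 3 and 90.9, 87.7 and 87.1% in Control libraries 1 to 3. Its groups did not overlap, with a difference of -10.0 points and a standard error of 3.99. It rests on 1 CpG, 46720077, at 14.1, 0 and 55.4% in SAM libraries 1 to 3 and 79.1, 57.4 and 50% in Control libraries 1 to 3, a difference of -39.0 points with overlapping groups. The other CpGs tested there differed by 1.70, -1.56 and -0.434 points. The window from 46620001 to 46621000, which overlaps block 3, was at 68.0, 66.3 and 67.1% in SAM libraries 1 to 3 and 68.5, 72.4 and 70.8% in Control libraries 1 to 3. Its groups did not overlap either, with a difference of -3.44 points. The sign rests on the weighting by reads: with each of its 13 CpGs weighted equally, a choice made after seeing the data, the groups overlapped and the difference was 0.356 points. The windows from 46670001 and from 46627001 differed by 3.71 and -0.739 points, and by 1.46 points without Control replicate 2 and -0.36 points without SAM replicate 3.

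Levels changed sharply at a few places. Of 637 pairs of neighbouring members at most 500 bp apart, 495 differed by at most 10 points in mean level, 18 differed by over 50, and the median difference was 2.80 points. Some of the sharp changes came from a single CpG out of step with both neighbours, and these CpGs were picked after their values were seen. At 46724199 the mean level was 0.684%, between neighbours at 100% and 61.9% that lie 10 and 4 bases away. At 46669915, in block 10, it was 2.38, 0 and 0.98% in SAM libraries 1 to 3 and 2.13, 0 and 10.8% in Control libraries 1 to 3, between neighbours at 99.6 and 88.6%. Both were read on the plus strand alone, with 301 and 292 reads in all. At 46687550, read on the minus strand alone, it was 45.2%, between neighbours at 96.6 and 96.9%. The low level held in both groups at the first 2 sites. Whether PC-3 DNA carries a CpG at the sites named here was not tested, and each was read on 1 strand only.

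The strands of a CpG could be compared at 19 members with at least 10 reads on each strand in all libraries. They lay within 10 points of each other at 16 of these and over 20 points apart at 2. At 46655476, in block 7, the plus strand averaged 85.9% and the minus strand 7.76%. At 46714058, in block 18, the plus strand averaged 34.8% and the minus strand 85.2%. The order of the strands was the same in all 6 libraries at both sites, so the summed level of these 2 CpGs (50.1 and 67.3%) is a mixture of unlike values.

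The spread between libraries of a group was larger than reading a limited number of molecules would give. The median SD within groups was 10.1 points at the 64 members of 20 to 80%, against 6.34 points from counting alone. It was 1.12 points at the 102 members under 20%, against 0.678, and 2.53 points at the 156 members over 80%, against 1.52. Counting error here takes each read as a molecule, and copies made in amplification cannot be told from separate molecules in these counts.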

How the data were processed

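Genomic DNA of 6 PC-3 libraries was read after bisulfite conversion. Each deposited list gives, per the file headers, a cytosine position and strand, its coverage (a count of reads) and the percents of C and T among them. CASAVA 1.8.2, FastQC 0.10.0, Bismark 0.7.4, methylKit 0.5.3 and hg19 are named per the submitters' processing notes. The library type and the handling of duplicates were not given in the sources used here. The lowest coverage in every deposited list was 10, so thinner positions are unseen.

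Methylated counts were recovered as coverage times percent C, and came within 0.1 of a whole read at 99.6% or more of positions. Each minus-strand C was added to the plus-strand C 1 base before it. Means were compared with exact two-sided permutation and sign-flip tests. Counts of every CpG, or 1 kb window of at least 3 CpGs, covered by 10 reads in all 6 libraries were fitted with edgeR 4.0.16 (R 4.3.3, modelMatrixMeth design), adjusted by Benjamini-Hochberg over all tested. Limma 3.58.1 on log2 ratios with 1 added to each count, and a quasi-binomial test, were alternatives. The fits were tested on simulated counts of 1 kb windows with counting error only. The spread between these libraries is larger, so how the fits perform at the real spread was not tested. Figures and exact tests used Python 3.11.15, numpy 2.4.6, pandas 2.3.3, scipy 1.17.1 and matplotlib 3.10.9.

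The members and lists were chosen with earlier results of these data known. CpGs and windows are named as those past the threshold and the 10 and 5 with the smallest p. Blocks are all given by level, and genes only where their place in hg19 was settled. LINC02086, with 9 matches, and the single CpGs out of step with their neighbours lie outside that rule.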

Additional observations from a re-analysis of the deposited data

How the results depend on the processing

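No CpG or window of the cluster was called by edgeR, limma or the quasi-binomial test at adjusted p under 0.05, nor by edgeR at 20 reads, with at least 5 CpGs per window or without each library in turn, nor by limma on 607 members at the coverage of the rule. The sign of the cluster's difference between SAM and Control did change, and the cause was not tested. For all members it was 1.17 points with each library's own members, 0.136 on the plus strand, 0.0485 on the minus strand and 0.258 in coverage set A, and weighting by reads gave -0.957. For the members outside HOXB13 and its flanks these were 1.66, 0.137, 0.0485 and 0.258 points. For HOXB13 and its flanks it was -0.166 points in set B (1 library against 1), 0.545 at 20 reads and 0.465 weighted by reads, and the minus strand alone gave no value. Leaving out 1 library gave -0.275 to 0.215 points for all members, -0.285 to 0.216 for the members outside HOXB13 and its flanks, and -0.196 to 0.321 for HOXB13 and its flanks. The groups did not overlap at the reversed sign without Control replicate 2 in the first 2 (exact permutation p = 0.30 and 0.20). Nor did they without SAM replicate 1 in the last (exact permutation p = 0.20). The gap between HOXB13 with its flanks and the other members was -59.6 to -59.3 points without 1 library, where 5 libraries allow no exact sign-flip p under 0.0625. At 20 reads 29.0% of members were under 20% and 51.4% over 80%, and over all 686 members the 3 classes held 28.1, 21.1 and 50.7%. Blocks whose groups did not overlap numbered 2 to 6 of 21 (9.52 to 28.6%) without 1 library, against 17.6 to 19.6% of the genome's blocks. The 6 came without Control replicate 2, against 18.7%, and the cause was not tested. Joined at 200 bp it was 1 of 25 (4%), against 9.13%. Of the 5 windows named, 1 changed sign when its CpGs were weighted equally, a choice made after seeing the data, and the window from 46620001 was then at 0.356 points. For libraries of equal replicate number, the correlations of deviations over the members were -0.0318, -0.018 and -0.0515. These values cannot settle whether such libraries are pairs, since deviations at single CpGs hold much counting error. With the replicate block the cluster's difference was -0.0852 points (exact sign-flip p = 1, where 3 pairs cannot go below 0.25), that of HOXB13 and its flanks 0.123 points, and edgeR called 0 members. Depth limits the HOXB13 interval, where Control replicate 2 gave no level.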
